A study of Mus musculus with 36 samples.

Results

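Ndufs4 knockout (KO) and wild-type (WT) brains were compared under vehicle alone, within the samples whose titles carry the letter F. The members are the 10 samples, out of 36 in the series, whose titles join genotype, vehicle and that letter: 5 KO libraries (L246, L279, L281, L282 and L283) and 5 WT libraries (L252, L277, L278, L295 and L296). All 10 mice were 37 to 45 days old and received vehicle, not CP2 (a small-molecule inhibitor of mitochondrial complex I), by gavage on 3 consecutive days before the brain was taken. The design text names hippocampus and cortex, and every sample is labelled brain, so the proportion of each region in a library is not given. The knockout allele, the mouse strain and whether the knockout reaches every cell type are also not given in the sources used here. The labels do not explain the letter F. Xist, the RNA that coats the inactive X chromosome, lay between 438.6 and 712.2 counts-per-million (CPM) in the 10 libraries, and the Y-linked gene Ddx3y reached at most 0.07 CPM. Each title has its own number, but nothing states that each library is a separate animal, so p-values measure the spread between these libraries.

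Ndufs4 encodes an accessory subunit of complex I, the enzyme that passes electrons from NADH to ubiquinone and pumps protons across the inner mitochondrial membrane. The subunit belongs to the electron-accepting arm, and complex I without it is unstable. Mice lacking Ndufs4 serve as a model of Leigh syndrome, a childhood disease with lesions in defined brain regions, gliosis and loss of weight.

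The libraries held between 4.86e+07 and 6.18e+07 gene counts (median 5.28e+07). The share of reads that fell outside annotated genes was 10.1%, 11.4%, 11.7%, 6.86% and 6.19% in KO (in the order given above) and 5.80%, 7.04%, 6.38%, 5.67% and 5.09% in WT. The KO mean exceeded the WT mean by 3.25 percentage points (exact two-sided permutation p = 0.0397, n = 5 against 5), and KO L246, L279 and L281 lay above every WT library. A score of 18 hippocampal CA field genes (mean log2 CPM) also separated the groups, with KO between 4.32 and 4.44 and WT between 4.54 and 5.07. All 54 markers of 14 cell types and regions were detected, and the summed CPM of each type overlapped between groups. Neuronal markers summed to between 3475 and 4651 CPM in KO and between 4277 and 5059 CPM in WT. In bulk tissue, fewer cells of a type and less RNA per cell cannot be told apart. A fit that adjusts for the percentage of reads outside genes was run for every list, and one that adjusts for the CA score is given as a count over all genes.

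**Figure D1:**
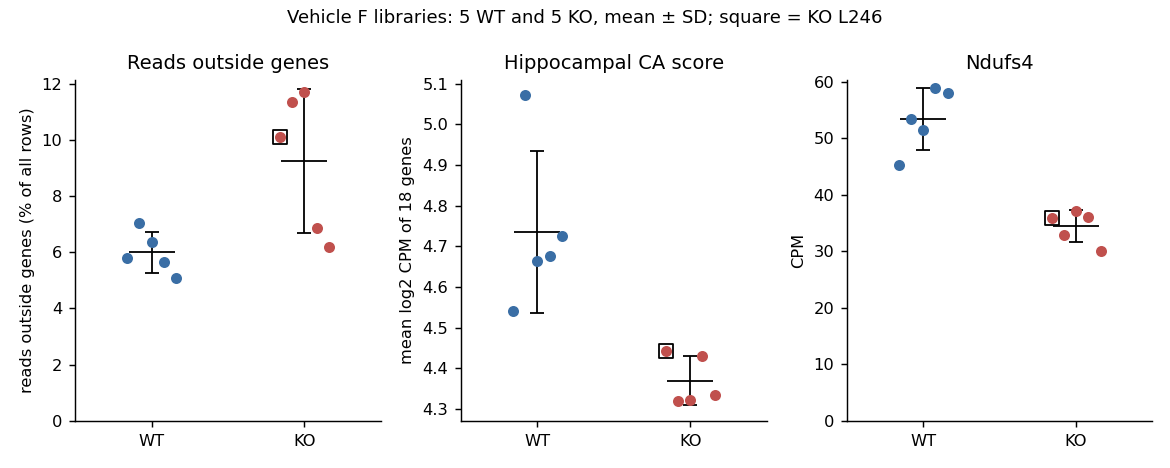
Each point is a library of the vehicle F groups, with bars for mean ± SD (n = 5) and a square on KO L246. The left panel gives the share of reads outside genes in percent, the middle panel the mean log2 CPM of 18 hippocampal CA genes and the right panel Ndufs4 in CPM. Ndufs4 and the CA score separate KO from WT completely, and 3 KO libraries have over 10% of reads outside genes.

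Ndufs4 RNA was lower in every KO library but far from absent. It measured 35.9, 33.0, 37.1, 36.1 and 30.2 CPM in KO and 45.2, 53.5, 51.5, 58.9 and 58.0 CPM in WT. The groups did not overlap, and the log2 fold change was -0.63 (SE 0.085, edgeR adjusted p = 2.83e-05). The exact two-sided permutation test of the log2 CPM values gave p = 0.00794, the smallest that 5 against 5 samples allow. Since counts are summed per gene, the exons behind the KO reads are unknown, and the check of the label is one of direction.

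In KO, 1270 of 25601 tested genes (4.96%) passed an adjusted p of 0.05 in edgeR's quasi-likelihood test and are referred to as called. Of these, 518 (2.02% of genes tested) were higher and 752 (2.94%) lower, so 40.8% of the calls were higher. Most changes were small: the median size of a called change was 0.45 on the log2 scale. The directions differed in level: 142 higher genes but 33 lower genes averaged under 1 CPM. Among the 141 of these with a rise of at least 1 on the log2 scale, 23 had over 50% of the KO signal in 1 library, which was L279 for 11, L281 for 7 and L246 for 4. Among genes of at least 1 CPM, 376 were higher and 719 lower. Samples of KO and WT did not overlap for 676 called genes (53.2%) and for 4.70% of all genes tested, which include them. The calls were made on the same libraries, so the higher share among called genes is built in. The split moved with the scaling, as edgeR with RLE size factors called 1202 genes (50.7% higher). DESeq2, which also differs in its test and filter, called 1800 (55.0% higher). A fit that adjusts for the percentage of reads outside genes (the share-adjusted fit) called 156 genes (0.609%, with 0.398% lower), 135 of them among the 1270. With only KO L282 and L283, whose shares were under 10%, against all 5 WT libraries, 77 genes (0.289%, with 0.150% lower) were called, 62 of them among the 1270. Without L246 the count was 800 (3.14%, with 1.44% higher), without L281 575 and without WT L296 573, while leaving out L283 raised it to 2014.

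Both Rbm3 and Cirbp rose in KO, while 9 of 24 chaperone genes fell. Rbm3 and Cirbp, the latter named after its values were seen, encode small RNA-binding proteins whose transcripts accumulate when cells are cooled mildly. Heat shock proteins and their co-chaperones assist protein folding and are induced by heat and by misfolded protein through heat shock factor 1. Promoters of 3 of these genes, picked by hand and each with a match, are shown with the motifs described for cooling and heating. Whether temperature had a part in these changes was not tested. The sequences are the 250 bases before a RefSeq transcription start (GRCm38.p6, the build of the promoter table and not that of the counts), 5′ to 3′ on the gene's strand. Cirbp and Hsph1 have 2 starts each, and the window with the most matches was chosen for display. Capitals mark TCCCCGCC, the mild-cold element described for Cirbp, in the first and the heat shock element core, GAANNTTC or TTCNNGAA (alternating units, often overlapping), in the other two.
Cirbp (chr10:80167589-80167838, plus strand): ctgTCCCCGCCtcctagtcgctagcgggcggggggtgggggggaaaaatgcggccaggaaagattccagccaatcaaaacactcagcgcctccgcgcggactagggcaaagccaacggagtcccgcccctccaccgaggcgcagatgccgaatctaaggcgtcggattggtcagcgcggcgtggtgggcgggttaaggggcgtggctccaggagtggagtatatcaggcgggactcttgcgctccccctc
Hspe1 (chr1:55087898-55088147, plus strand): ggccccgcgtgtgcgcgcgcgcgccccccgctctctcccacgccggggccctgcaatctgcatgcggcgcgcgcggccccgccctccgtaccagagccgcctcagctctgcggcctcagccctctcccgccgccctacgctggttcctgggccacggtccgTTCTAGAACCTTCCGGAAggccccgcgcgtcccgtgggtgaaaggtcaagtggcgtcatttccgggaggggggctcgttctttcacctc
Hsph1 (chr5:149636337-149636586, minus strand): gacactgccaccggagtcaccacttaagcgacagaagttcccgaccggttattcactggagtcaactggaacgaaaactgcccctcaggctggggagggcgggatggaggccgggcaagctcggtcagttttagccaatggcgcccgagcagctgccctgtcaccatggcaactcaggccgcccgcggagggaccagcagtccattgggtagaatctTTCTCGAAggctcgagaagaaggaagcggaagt

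TCCCCGCC on either strand occurred in such windows of 5.37% of 27025 genes, and either heat shock core in those of 14.5%. Among the chaperone genes, 7 of 19 in the promoter table had a heat shock core, and among those called, 3 of 8. The mild-cold element was also found in 5 of these 19 chaperone genes and in 1 of the 8 called, which were lower. A match is a description of letters and not of binding. No promoter is shown for Rbm3.

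Rbm3 was higher in every KO library than in any WT library, which the naming rule required of genes chosen by p. It measured 127, 133, 128, 125 and 102 CPM in KO and 37.0, 80.5, 51.8, 59.9 and 52.1 CPM in WT, without overlap (log2 fold change 1.13, SE 0.166, adjusted p = 0.000188). Cirbp measured 112, 108, 124, 107 and 72.3 CPM in KO and 35.6, 72.1, 56.1, 56.1 and 48.5 CPM in WT (0.96, SE 0.173, adjusted p = 0.00166). For Cirbp the lowest KO library, L283, lay just above the highest WT library, L277. Both genes were called in each of the 10 fits that left out 1 library and in the share-adjusted fit. With only KO L282 and L283, Rbm3 was called (adjusted p = 0.0444) and Cirbp was not (adjusted p = 0.193).

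Of 24 chaperone genes 0 were called higher and 9 lower, beside 2.94% called lower over all genes tested, and 23 had a negative log2 fold change. Their median was -0.29, against 0.03 over all genes tested. Hsph1, the cytosolic HSP110 that releases nucleotide from HSP70, measured 172, 161, 129, 178 and 210 CPM in KO and 379, 262.4, 251, 293 and 292.2 CPM in WT (log2 fold change -0.80, SE 0.129, adjusted p = 0.0005). All KO libraries lay below all WT libraries, and WT L252 was the highest. Hspe1 and Hspd1, the mitochondrial chaperonin pair HSP10 and HSP60, fell by 0.36 and 0.28 on the log2 scale. In the endoplasmic reticulum, the calcium-binding lectin chaperone Calr fell by 0.54, the disulfide isomerase Pdia6 fell by 0.45 and Sdf2l1, a partner of BiP complexes, fell by 1.01. The remaining called members were Creld2, Hsp90b1 and Hsp90aa1. KO and WT libraries overlapped for Sdf2l1, Creld2 and Hsp90aa1. Hsph1, Hspd1 and Calr were called in all 10 fits that left out 1 library, while Pdia6 lost its call without L281 (adjusted p = 0.0545). Each of the other 5 lost its call without L281 and without WT L252. Creld2 lost it in 7 of the 10 fits (adjusted p up to 0.124). Hspe1 lost it also without WT L295, Hsp90b1 also without L282, and Sdf2l1 and Hsp90aa1 also without L279.

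Chordc1, an HSP90 co-chaperone outside the list and chosen after its values were seen, followed the same direction. It measured 36.3, 37.6, 24.7, 40.4 and 50.5 CPM in KO and 89.2, 65.6, 60.1, 69.0 and 62.3 CPM in WT (log2 fold change -0.87, SE 0.172, adjusted p = 0.00354), again without overlap. Ahsa1, which activates the HSP90 ATPase, fell by 0.34 (adjusted p = 0.00427) and was also chosen after the fact. The number of chaperone calls depended on single libraries: 9 without L246, 6 without L279, 4 without WT L252 and 3 without L281, with medians from -0.32 to -0.17 over the 10 fits. In the share-adjusted fit 1 chaperone was called, Hsph1 (median -0.22), and with only KO L282 and L283 none was (median -0.24). The last fit had 8 chaperone genes at an unadjusted p under 0.05 in edgeR, all lower, and DESeq2 on all 10 libraries called 10 of the 24 lower.

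**Figure D2:**
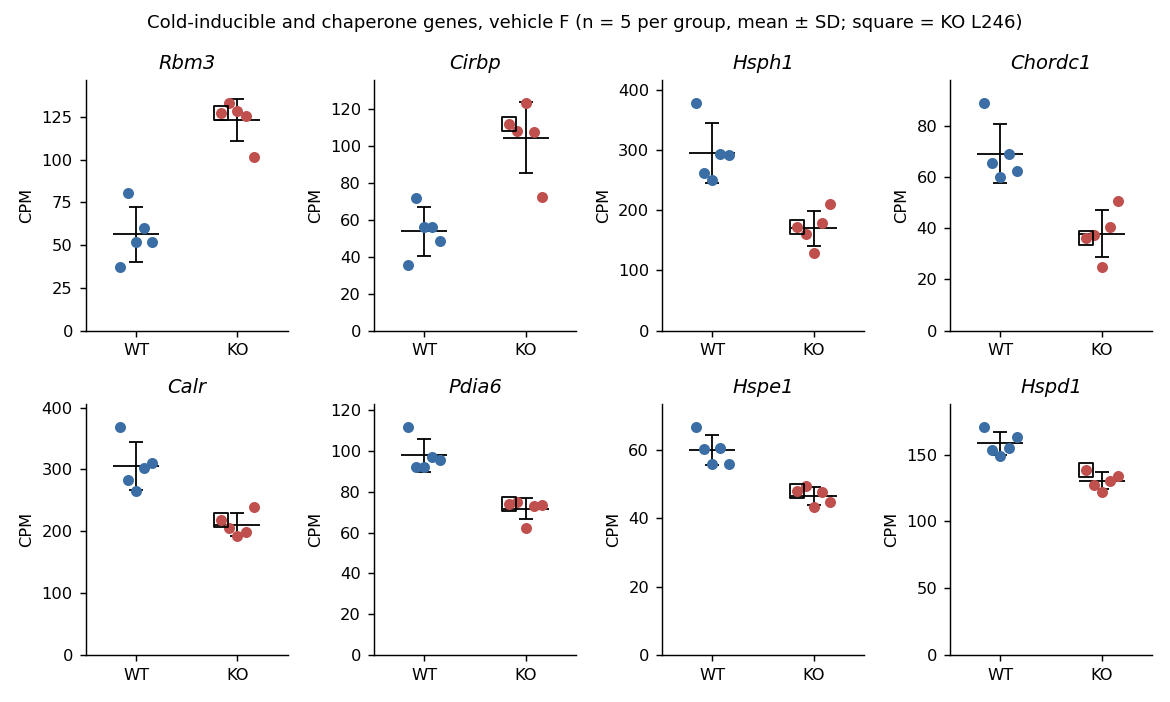
Each panel gives the CPM of a gene in the 5 WT and 5 KO libraries, with mean ± SD and a square on KO L246. KO lies above WT for Rbm3 and Cirbp and below WT for the 6 chaperone and co-chaperone genes, without overlap in any of the 8 panels. The called chaperone genes Sdf2l1, Creld2 and Hsp90aa1, whose groups overlapped, are not shown.

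Of 36 nuclear complex I subunit genes 3 were called, all lower and Ndufs4 among them, beside 2.94% called lower over all genes tested. The median log2 fold change was -0.15 with 29 negative values, and 10 genes were lower and 0 higher at an unadjusted p under 0.05 in edgeR. Besides Ndufs4 these were Ndufc1 (-0.40, SE 0.084, adjusted p = 0.00364) and Ndufb2 (-0.37, SE 0.097, adjusted p = 0.0206), both subunits of the membrane arm. Ndufc1 measured between 28.5 and 34.6 CPM in KO and between 39.1 and 43.6 CPM in WT. Among 18 assembly factor genes 1 was called higher and 2 lower, with Timmdc1, which helps build the membrane arm, at -0.49 (SE 0.104, adjusted p = 0.0041). In the share-adjusted fit edgeR called 1 complex I subunit gene (median -0.05) and 0 assembly factor genes (1 higher and 4 lower at an unadjusted p under 0.05). Ndufc1 (adjusted p = 0.121), Ndufb2 (adjusted p = 0.362) and Timmdc1 (adjusted p = 0.176) lost their calls there, and with only L282 and L283 as well (adjusted p from 0.0635 to 0.221).

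Among 13 protein genes of mitochondrial DNA, mt-Nd2, a membrane-arm core subunit of complex I, was the one called, beside 2.94% lower over all genes. It measured 2616, 2484, 2443, 2218 and 3162 CPM in KO and 4212, 3607, 3857, 3788 and 3554 CPM in WT (log2 fold change -0.56, SE 0.098, adjusted p = 0.000769). The groups did not overlap, and the call held in the share-adjusted fit (adjusted p = 0.00949) but not with only L282 and L283 (adjusted p = 0.128). Since the library selected polyadenylated RNA, the values of mitochondrial genes also depend on how their transcripts are tailed. Nuclear genes of complexes II to V gave 3 lower calls of 37 (median -0.15), beside 2.94% lower over all genes tested. Among them was Atp5d, a subunit of the ATP synthase stalk (-0.34, adjusted p = 0.00539). At an unadjusted p under 0.05 in edgeR, 13 of the 37 were lower and 0 higher. The share-adjusted fit called 0 of them (median -0.05, with 5 higher and 3 lower at an unadjusted p under 0.05), and Atp5d had an adjusted p of 0.215 there.

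Of 78 mitochondrial ribosomal protein genes 12 were called lower and 0 higher, with a median of -0.13. Over all genes tested 2.94% were called lower and 2.02% higher. Examples are Mrpl34 (-0.64, SE 0.116, adjusted p = 0.00104) and Mrpl48 (-0.30, SE 0.065, adjusted p = 0.00415). None of the 78 was called by edgeR in the share-adjusted fit, where the median was -0.05 and 9 lower and 1 higher had an unadjusted p under 0.05. Leaving out L246 or WT L295 gave 6 lower calls, WT L296 5 and L281 4. Cytosolic ribosomal protein genes gave 1 call of 84 (median -0.04). Ndufb2 was not called without L281, WT L295 or WT L296 (adjusted p up to 0.069), and the other genes named in the paragraphs on mitochondria were called in all 10 such fits.

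**Figure D3:**
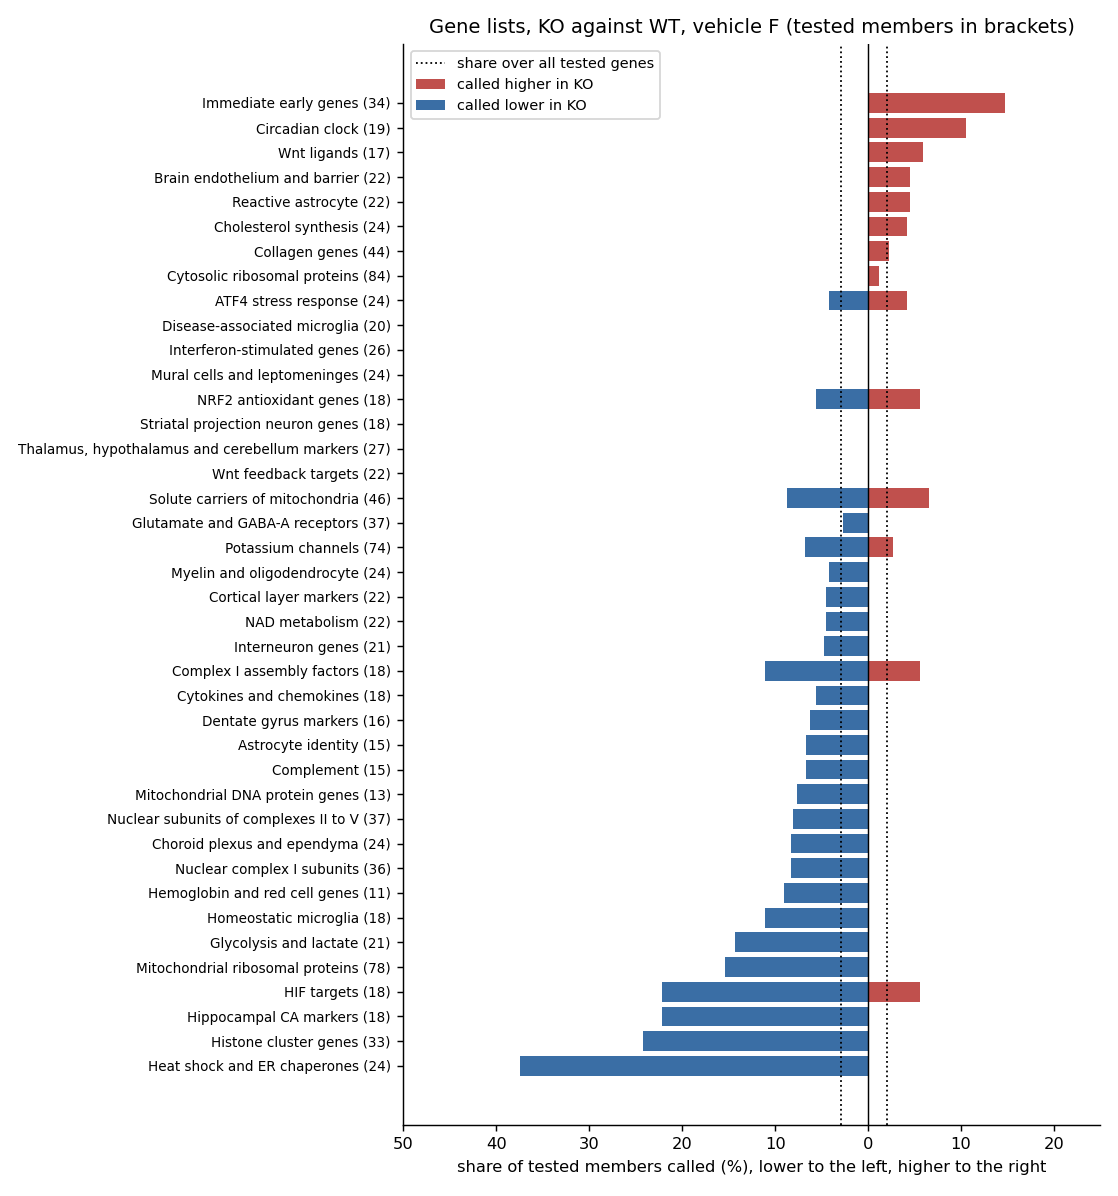
Bars give the share of tested members called higher (right) and lower (left) in KO for 40 gene lists, with the number of tested members in brackets. Dotted lines mark the 2.02% higher and 2.94% lower over all genes tested. Chaperone, histone, hippocampal CA and HIF target lists reach farthest to the left, and immediate early genes farthest to the right.

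Among genes of at least 1 CPM without overlap, the largest rise was that of Wnt10b, a secreted Wnt ligand. It measured 2.33, 2.10, 14.6, 7.62 and 2.87 CPM in KO and 0.54, 0.77, 0.59, 0.40 and 1.60 CPM in WT (log2 fold change 2.92, SE 0.557, adjusted p = 0.00231). Its size rested on L281 and L282, and without L281 the log2 fold change was 2.27, still called. Wnt10b was the 1 Wnt ligand gene called by edgeR of 17 tested (median -0.06). Of 22 Wnt feedback target genes 0 were called by edgeR or DESeq2 (median -0.03), and 4 had an unadjusted p under 0.05 in edgeR.

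Slc2a4, which encodes the insulin-responsive glucose transporter GLUT4, measured 4.39, 5.56, 4.56, 7.17 and 4.08 CPM in KO and 0.996, 1.98, 2.56, 2.19 and 1.81 CPM in WT. Its log2 fold change was 1.43 (SE 0.249, adjusted p = 0.000615), and it was called in all 10 fits without 1 library, in the share-adjusted fit (adjusted p = 0.0223) and with only L282 and L283 (adjusted p = 0.0241). Other large rises at low levels were those of Npcd (2.37), Dcst2 (2.27), the chemokine gene Ccl17 (1.85), the endothelin gene Edn1 (1.69) and the keratin gene Krt9 (1.51). Ccl17 lost its call without L281 (adjusted p = 0.0601). Edn1 was highest in L246 (9.04 CPM, against 1.77 to 3.70 CPM in the other KO libraries), and its log2 fold change was 1.18 without L246. Gm15564, at 2.22, was not called without L246 (0.71, adjusted p = 0.227).

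Histone genes were among the lower genes. Of 33 histone cluster genes tested, 0 were called higher and 8 lower, beside 2.94% lower over all genes tested, with a median log2 fold change of -0.79. Replication-dependent histone transcripts end in a stem-loop and not in a poly(A) tail, so polyA-selected libraries read them incompletely, and their near-identical copies make single values uncertain. Hist1h2bc, the most abundant of those called, measured 25.5, 18.6, 17.9, 23.01 and 26.9 CPM in KO and 44.9, 39.9, 41.9, 29.6 and 35.99 CPM in WT (-0.78, SE 0.141, adjusted p = 0.00127). Hist1h2be measured 1.27, 1.99, 1.43, 2.45 and 2.78 CPM in KO and 9.01, 4.72, 4.45, 5.10 and 4.57 CPM in WT (-1.48, SE 0.251, adjusted p = 0.0005). Neither gene's groups overlapped. Hist2h3c2 fell by 1.84 and Hist3h2a fell by 0.72. In the share-adjusted fit 1 gene of the list was called (median -0.75). With only L282 and L283 edgeR called 0 (median -0.53), and 10 had an unadjusted p under 0.05, all lower.

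Beyond histones, the largest falls among genes of at least 1 CPM without overlap included Ppp1ccb (-1.60), Stoml3 (-1.54) and Car15 (-1.24). The counts of Ppp1ccb may be shared with a related phosphatase gene. Stoml3 is a stomatin-family membrane protein gene, and Car15 a carbonic anhydrase gene. Car15 measured between 0.82 and 1.25 CPM in KO and between 2.21 and 2.47 CPM in WT. Stoml3 was not called without L281 (adjusted p = 0.0526), and the other two were called in all 10 fits.

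The genes with the smallest p changed by modest amounts, with little spread within a group. Pex6, an ATPase that recycles the import receptor of peroxisomes, measured 48.0, 48.3, 48.2, 42.8 and 46.3 CPM in KO and 65.4, 68.6, 69.3, 71.6 and 74.5 CPM in WT (-0.58, SE 0.072, adjusted p = 1.66e-05). Mfge8, a secreted glycoprotein that links exposed phosphatidylserine to phagocytes, measured 106, 79.7, 100.4, 89.5 and 106 CPM in KO and 138, 153, 173, 161 and 161 CPM in WT (-0.71, SE 0.090, adjusted p = 1.66e-05). Neither gene overlapped, which the naming rule required of genes chosen by p, and both were called in every alternative fit named so far. Other lower genes of small p were Lztr1 (-0.45), an adaptor that directs RAS-family proteins to degradation, Mical2 (-0.66), which oxidises actin, Ubxn2b (-0.70), a cofactor of the p97 ATPase, Lrp4 (-0.76), a receptor for agrin, and Setd7 (-0.69), a lysine methyltransferase. Akt2, a kinase of insulin signalling named here for its call in 3 comparisons, fell by 0.64 (SE 0.097, adjusted p = 0.000135).

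Higher genes of small p were Eml2 (0.56), which binds microtubules, Deaf1 (0.46), a transcription factor, Smyd3 (0.59), a lysine methyltransferase, and Xpo6 (0.37), the nuclear exporter of actin. Smyd3 measured 42.9, 51.5, 46.8, 49.9 and 40.5 CPM in KO and 33.2, 30.6, 29.5, 32.1 and 28.7 CPM in WT (SE 0.088, adjusted p = 0.000114). The taurine transporter gene Slc6a6 rose by 0.59, the clock repressor gene Cry1 by 0.70 and Vps11, a core subunit of vacuolar tethering complexes, by 0.34. None of these 7 genes overlapped between groups, which the naming rule required of genes chosen by p. In all, 43 genes (21 higher, 22 lower) were called in the fit of all samples, without L246, in the share-adjusted fit and with only L282 and L283. They included Pex6, Mfge8, Lztr1, Mical2, Rbm3, Eml2, Deaf1, Smyd3, Xpo6, Slc2a4, Wnt10b and Ndufs4.

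Immediate early genes, which neurons transcribe within minutes of activity, gave the largest apparent rise of any list, and it came from 1 library. Promoters of 3 of them are shown because activity reaches such genes partly through CREB, which binds the cyclic AMP response element. Capitals mark its core, TGACGT on either strand, with build, length and direction as above.
Npas4 (chr19:4989972-4990221, minus strand): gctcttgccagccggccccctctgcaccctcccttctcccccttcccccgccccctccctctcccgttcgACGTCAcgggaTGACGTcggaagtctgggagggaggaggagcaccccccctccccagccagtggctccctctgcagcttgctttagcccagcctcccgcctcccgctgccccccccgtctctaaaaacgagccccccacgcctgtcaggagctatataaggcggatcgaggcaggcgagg
Fos (chr12:85473640-85473889, plus strand): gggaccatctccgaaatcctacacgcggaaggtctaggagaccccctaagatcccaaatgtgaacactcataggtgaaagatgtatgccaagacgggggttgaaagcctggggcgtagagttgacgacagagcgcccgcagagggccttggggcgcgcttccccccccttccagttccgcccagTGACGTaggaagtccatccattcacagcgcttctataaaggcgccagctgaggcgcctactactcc
Btg2 (chr1:134079156-134079405, minus strand): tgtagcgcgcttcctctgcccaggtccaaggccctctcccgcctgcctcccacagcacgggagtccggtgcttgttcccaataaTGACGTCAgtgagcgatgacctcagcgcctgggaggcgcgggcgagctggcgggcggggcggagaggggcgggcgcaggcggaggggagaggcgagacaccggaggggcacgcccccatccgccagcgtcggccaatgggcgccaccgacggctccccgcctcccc

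Npas4 has a match on each strand, and in Btg2 the matches of both strands overlap in a full palindrome. The core occurred in 7.29% of 27025 genes, in 13 of 28 immediate early genes in the promoter table and in 4 of the 5 called. Npas4, an activity-dependent transcription factor gene, measured 419 CPM in L246 but between 4.38 and 11.0 CPM in the other KO libraries and between 5.53 and 17.6 CPM in WT. Fos measured 644 CPM in L246, between 8.93 and 21.9 CPM in the other KO libraries and between 10.6 and 39.6 CPM in WT. L246 thus stood 49.6-fold above the median of the other KO libraries for Npas4 and 38.5-fold for Fos, and the corresponding ratio was 43.9 for Fosb, 30.5 for Ccn1 and 26.6 for Btg2.

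With L246, 5 of 34 immediate early genes were called higher (Fosb, Btg2, Fos, Ccn1 and Npas4), 0 lower, and the median log2 fold change was 0.66. Without L246 edgeR called none and the median was -0.23, with 8 instead of 26 positive values and 4 lower at an unadjusted p under 0.05. Leaving out any 1 WT library left 1 or 2 of the 34 called higher. DESeq2 on all 10 libraries called 9 higher and 1 lower. Fos changed from 2.75 (adjusted p = 0.0415) to -0.38 (adjusted p = 0.648), and Npas4 from 3.03 (adjusted p = 0.0388) to -0.45 (adjusted p = 0.629). L246 was the highest of the 10 libraries for 28 of the 34 genes. Among WT libraries L252 had the highest Fos (39.6 CPM) and also the highest Arc (246.5 CPM) and Egr1 (338 CPM), chosen after their values were seen. Of 15358 genes with a mean of at least 1 CPM, 33 exceeded 5 times the median of the other KO libraries in L246, and 17 of these were on the immediate early list. Atf3, a stress-induced transcription factor gene on the ATF4 list, was also among the 33, at 28.9 CPM against 0.55 to 1.33 CPM in the other KO libraries. Its log2 fold change of 3.03 (adjusted p = 0.0212) became 0.26 (adjusted p = 0.792) without L246.

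**Figure D4:**
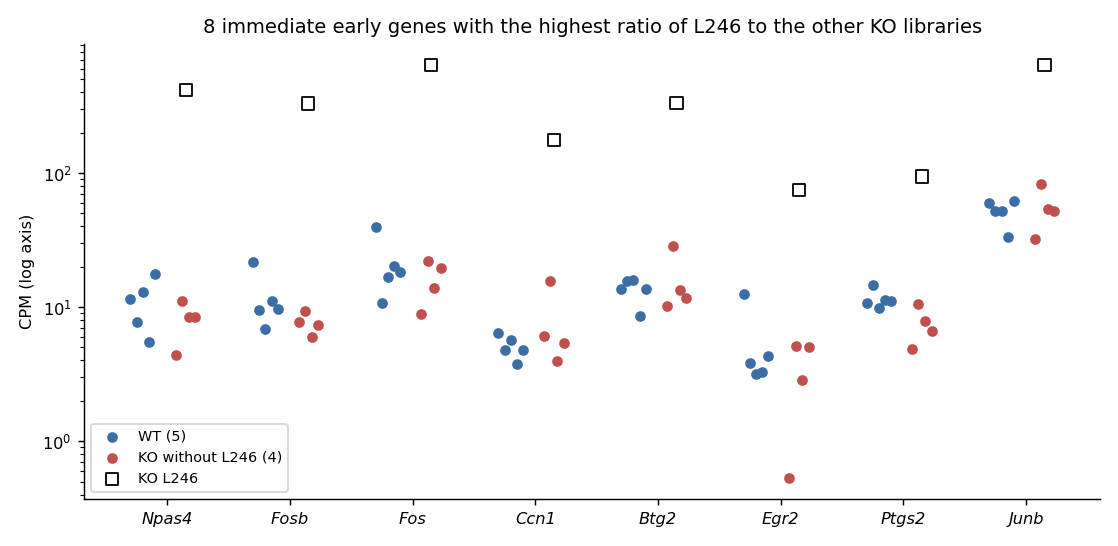
CPM on a log axis of the 8 immediate early genes with the highest ratio of L246 to the median of the other KO libraries. Blue points are the 5 WT libraries, red points the 4 other KO libraries and the open square is L246, which lies above the other 9 libraries for all 8 genes.

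Glial and immune lists had at most 2 genes called each by edgeR in the fit of all samples. Microglia, the resident phagocytes of the brain, lose homeostatic genes and gain disease-associated ones where tissue is damaged. Of 18 homeostatic microglial genes 0 were called higher and 2 lower (median -0.15), beside 2.94% lower over all genes tested. At an unadjusted p under 0.05 in edgeR 0 were higher and 5 lower, and without L246 these were 0 and 8. DESeq2 called 0 higher and 3 lower. EdgeR called 0 of the 18 without L279, without L281 and in the share-adjusted fit, where the median was 0.04 and 1 higher and 2 lower had an unadjusted p under 0.05. Of 20 disease-associated genes 0 were called by edgeR or DESeq2 (median 0.02, with 2 at an unadjusted p under 0.05 in edgeR). Fcrls, a microglial surface receptor gene, measured 19.1, 9.95, 11.7, 15.4 and 21.9 CPM in KO and 26.6, 21.7, 30.1, 26.9 and 29.2 CPM in WT (-0.79, SE 0.195, adjusted p = 0.0173). KO L283 and WT L277 overlapped, and the call was lost without L279 or L281 (adjusted p up to 0.0658). Cx3cl1, the neuronal ligand of the microglial fractalkine receptor, measured between 387 and 529 CPM in KO and between 566 and 745 CPM in WT (-0.50, SE 0.116, adjusted p = 0.0119). It was not called without WT L296 (adjusted p = 0.0502). Of 26 interferon-stimulated genes edgeR called 0 (median 0.13, with 5 at an unadjusted p under 0.05) and DESeq2 1, while with only L282 and L283 edgeR called 2 higher. Of 15 complement genes 1 was called, lower.

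Reactive astrocyte genes gave 1 higher call of 22 (median 0.18), the class I histocompatibility gene H2-D1 (0.43, SE 0.111, adjusted p = 0.0185), which was not called without WT L277 (adjusted p = 0.0546). Gfap, the intermediate filament gene of reactive astrocytes, was not chosen by the naming rule and measured 491, 456, 274, 633 and 646 CPM in KO and 392, 296.2, 587, 323 and 348 CPM in WT. These ranges overlapped widely (0.36, SE 0.412, adjusted p = 0.679). Of 44 collagen genes 1 was called, Col6a1 (0.92, adjusted p = 0.0174), which was not called without L246, L281 or WT L252 (adjusted p up to 0.0649). Of 24 mural and leptomeningeal genes 0 were called by edgeR or DESeq2 (median 0.06), and 3 had an unadjusted p under 0.05 in edgeR.

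Hippocampal CA genes, the list on which the groups' scores separated, gave 4 lower calls of 18 (median -0.27), beside 2.94% lower over all genes tested. The count was 2 without L246, 1 without L281, 1 in the share-adjusted fit and 0 with only L282 and L283 (3 lower at an unadjusted p under 0.05 in edgeR), and DESeq2 called 3 lower and 1 higher. Neurod6, a pyramidal neuron transcription factor gene, measured 32.3, 21.9, 26.01, 41.2 and 43.6 CPM in KO and 50.6, 83.4, 44.2, 45.9 and 57.3 CPM in WT (-0.77, SE 0.183, adjusted p = 0.0146). KO L283 and WT L278 nearly met, and the call was lost without L281 (adjusted p = 0.0557). Spink8, which marks CA1, fell by 1.39 (adjusted p = 0.0166), with the highest KO library (2.81 CPM) just above the lowest WT library (2.79 CPM). Wfs1, also a CA1 marker and chosen after its values were seen, lay in the opposite direction. It measured between 143 and 194 CPM in KO and between 119 and 134 CPM in WT, without overlap and without a call in edgeR (0.41, SE 0.159, adjusted p = 0.130). DESeq2 (adjusted p = 0.0496) and the fit of only the samples compared (adjusted p = 0.0132) called it higher. The 5 hippocampus markers summed to a mean of 259.3 CPM in KO and 254.3 CPM in WT. Wfs1 made up most of the KO sum, with a mean of 166.5 CPM in KO and 125.3 CPM in WT. The other markers had negative log2 fold changes: Spink8 and Neurod6, given above, and Prox1 (-0.28) and C1ql2 (-0.13), which were not called. Dentate gyrus and cortical layer lists gave 1 lower call each, of 16 and 22 genes, and of 18 striatal genes 0 were called by edgeR or DESeq2, with 0 at an unadjusted p under 0.05. With the CA score as a covariate 1421 genes (5.55%) were called, 740 of them among the 1270.

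Cck, the cholecystokinin neuropeptide gene, measured 183, 164, 184, 183 and 192 CPM in KO and 261, 277.4, 234.02, 253 and 335 CPM in WT, with a gap between the groups (-0.59, SE 0.119, adjusted p = 0.00351). Gabra2, an alpha subunit of the GABA-A receptor, measured 38.3, 33.4, 41.1, 41.0 and 50.1 CPM in KO and 68.3, 63.0, 57.4, 60.4 and 64.1 CPM in WT (-0.62, SE 0.125, adjusted p = 0.00349). Gabra2 was the 1 receptor gene called of 37 (median -0.17). It kept its call in the share-adjusted fit (adjusted p = 0.0484), where Cck did not (adjusted p = 0.143). With only L282 and L283 neither was called (adjusted p = 0.297 for Gabra2 and 0.212 for Cck). Of 74 potassium channel genes 2 were called higher and 5 lower (median -0.19), beside 2.02% higher and 2.94% lower over all genes tested. The GIRK channel subunit gene Kcnj3 was at -0.36 (adjusted p = 0.00977). EdgeR called none of the 74 in the share-adjusted fit, where 3 higher and 11 lower had an unadjusted p under 0.05. Clock genes gave 2 higher calls of 19 (median 0.04), beside 2.02% higher over all genes tested, of which Cry1 measured 33.7, 21.8, 35.9, 28.6 and 26.3 CPM in KO and 16.3, 20.8, 17.0, 18.1 and 18.1 CPM in WT. Time of day of collection is not given in the sources used here.

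In glucose metabolism, 3 of 21 glycolysis and lactate genes were called, all lower (median -0.10), beside 2.94% lower over all genes tested. The share-adjusted fit called 0 of the 21 (median -0.01, with 2 higher and 3 lower at an unadjusted p under 0.05 in edgeR). Ldha, the lactate dehydrogenase A subunit gene, measured 203, 169, 178, 199 and 186 CPM in KO and 241, 257.1, 237, 249 and 269 CPM in WT (-0.42, SE 0.099, adjusted p = 0.0107). Pfkl, the liver-type phosphofructokinase gene, fell by 0.43 (SE 0.090, adjusted p = 0.00402), and neither gene's groups overlapped. In the share-adjusted fit Ldha had -0.21 (adjusted p = 0.356) and Pfkl -0.37 (adjusted p = 0.0914), and with only L282 and L283 Pfkl was called (adjusted p = 0.0459). HIF targets, which rise when oxygen is short, gave 1 higher and 4 lower calls of 18 (median -0.09), beside 2.02% higher and 2.94% lower over all genes tested. EdgeR called none of the 18 in the share-adjusted fit (1 higher and 4 lower at an unadjusted p under 0.05) or with only L282 and L283 (1 higher and 6 lower). P4ha1, a collagen prolyl hydroxylase subunit gene on that list, measured 25.8, 28.9, 18.9, 28.6 and 32.1 CPM in KO and 70.2, 40.3, 43.4, 46.5 and 41.1 CPM in WT (-0.85, SE 0.173, adjusted p = 0.00421). Its adjusted p was 0.0954 and 0.262 in the last 2 fits.

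Stress programmes often named in mitochondrial disease were covered by short lists. Of ATF4 genes 8.33% were called and of NRF2 genes 11.1%, beside 4.96% over all genes tested. The ATF4 list, which covers amino acid synthesis and one-carbon genes, had 1 call in each direction among 24 genes (median -0.13), with 1 higher and 5 lower at an unadjusted p under 0.05 in edgeR. Without L246 these were 0 higher and 6 lower, and the share-adjusted fit called none (1 higher and 1 lower). The higher one was Atf3, described above, and the lower one Mthfd2, a mitochondrial folate enzyme gene (-0.67, SE 0.179, adjusted p = 0.0235). Mthfd2 was not called without L246, L281 or WT L252 (adjusted p up to 0.098). NRF2 antioxidant genes also had 1 call in each direction, of 18 (median 0.08). EdgeR called none of the 18 without L246, with only L282 and L283 or in the share-adjusted fit. In the share-adjusted fit 7 higher and 1 lower had an unadjusted p under 0.05. Of 24 cholesterol synthesis genes Lss, which closes the sterol ring, was the one called (0.44, SE 0.089, adjusted p = 0.00273), while 18 of the 24 had a negative log2 fold change. Lss measured between 53.2 and 63.3 CPM in KO and between 38.6 and 47.6 CPM in WT, and it was among the 43 genes called in every restricted fit. Parp1, a nuclear consumer of NAD, fell by 0.31 (adjusted p = 0.00624) and was the 1 gene called of 22 in NAD metabolism. Among 46 mitochondrial carrier genes 3 were called higher and 4 lower (15.2%, beside 4.96% over all genes tested), with Slc25a14 at -0.33 (adjusted p = 0.00364). EdgeR called none of the 46 in the share-adjusted fit, where 5 higher and 3 lower had an unadjusted p under 0.05.

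The same genotype comparison was made in 2 other sets that share no sample with it. Under CP2 in F (5 KO, 5 WT) 511 genes (2.00%, with 1.28% lower) were called, and 210 of them were among the 1270, which is 16.5% of those called under vehicle and 41.1% of those called under CP2. All 210 had the same sign. Over the 1270 genes, 93.3% had the same sign under CP2, against 67.2% over all genes tested, and the median absolute log2 fold change was 0.25 under CP2 and 0.45 under vehicle, where the genes were chosen. The difference between the 2 effects was called for 0 genes by edgeR, with 1478 at an unadjusted p under 0.05, and for 5 genes by DESeq2. In vehicle M (3 KO, 3 WT) 132 genes (0.516%, with 0.289% lower) were called, of which 48 were shared, being 3.78% and 36.4% of the lists, 47 with the same sign.

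**Figure D5:**
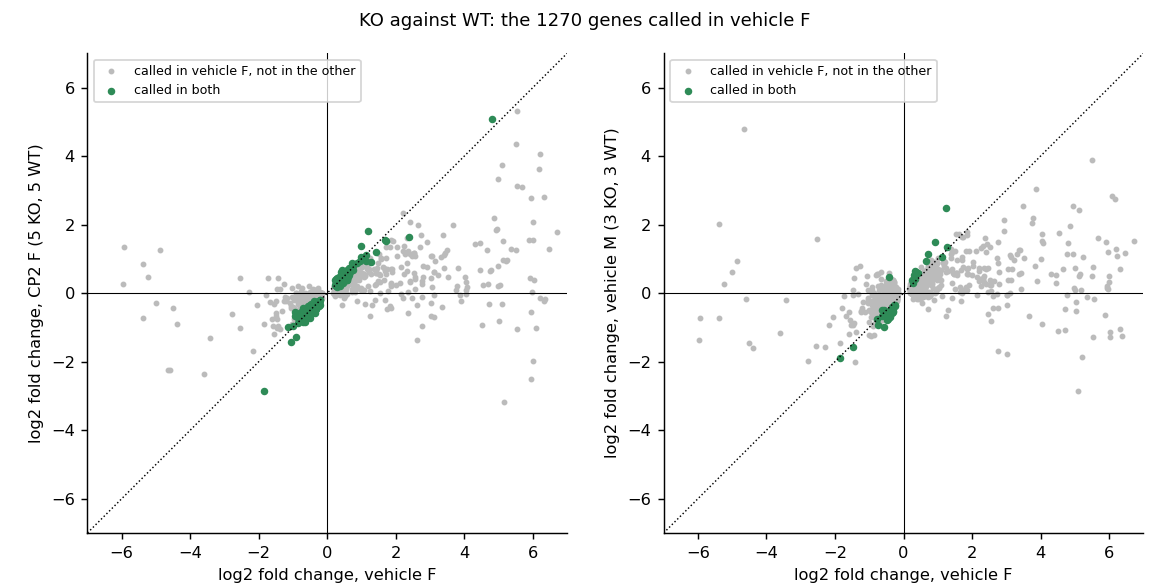
Each point is one of the 1270 genes called in vehicle F, with its KO against WT log2 fold change there on the horizontal axis and under CP2 in F (left) or under vehicle in M (right) on the vertical axis. Green points were called in both comparisons (210 and 48 genes), and the dotted line marks equal change. The horizontal axis chose the genes, so smaller values on the vertical axis are partly built in.

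Only 11 genes were called in all 3 sets, each with the same sign. They included Ndufs4, Pex6, Rbm3, Akt2, the growth factor gene Vegfb and Ndst1, an enzyme of heparan sulfate synthesis, the last 3 picked out after their values were seen. Rbm3 rose by 1.13 in vehicle F, 1.06 in vehicle M (adjusted p = 0.0176) and 0.93 under CP2 in F (adjusted p = 0.00325). Pex6 had log2 fold changes of -0.58, -0.49 (adjusted p = 0.0121) and -0.45 (adjusted p = 0.000859) in the same order. Vegfb had -0.34, -0.40 (adjusted p = 0.0165) and -0.25 (adjusted p = 0.0298). Chaperone genes gave 8 lower calls of 24 under CP2 in F (median -0.36) and 0 by edgeR in vehicle M (median -0.23), where 10 had an unadjusted p under 0.05, all lower. Histone genes gave 0 higher and 4 lower calls of 33 in vehicle M (median -0.91), beside 0.289% lower over all genes tested. Under CP2 in F they gave 1 higher and 0 lower calls (median -0.37), beside 1.28% lower over all genes tested. Hippocampal CA genes had a median of 0.28 in vehicle M and of 0.12 under CP2 in F, opposite in sign to vehicle F. The vehicle effect differed between F and M at 26 genes (0.102%), and 25 of these (0.0977%) had the lower KO effect in F. Adra1d, an adrenergic receptor gene, had -0.76 in F and 0.56 in M (difference -1.32, SE 0.244, adjusted p = 0.0163). Sema3e, an axon guidance gene, had -0.66 and 0.40 (difference -1.06, SE 0.218, adjusted p = 0.0331).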

How the data were processed

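Polyadenylated brain RNA was sequenced (Illumina TruSeq, per the labels). The authors deposited 1 table of raw counts per Ensembl gene, and the submitters' processing notes name STAR, HTSeq and GRCm39 without versions. Strandedness is not given in the sources used here, so overlapping and antisense genes are uncertain, and so are near-identical copies. Of 56985 rows, 5 summary lines were left out of library sizes and tests, and hold 12.0% to 18.4% of all reads in the 10 libraries. Symbols from GENCODE M21 matched 52073 of 56980 identifiers (91.4%), holding 97.2% of counts. The gene ENSMUSG00000119584, without a symbol, took 0.906% to 3.20% of counts. All sample columns matched a title.

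From the deposited counts, CPM used TMM library sizes. Genes were tested with edgeR 4.0.16 in R 4.3.3 (filterByExpr, robust glmQLFit and glmQLFTest) on all 36 samples with 1 coefficient per group, so that groups share the estimate of spread, and Benjamini-Hochberg adjustment over 25601 genes. Standard errors are the log2 fold change over the square root of the F statistic. In simulated data for this comparison (25601 genes, 24805 tested), 89% of 200 genes changed 3-fold were called with 6 unchanged genes. Log2 CPM for the permutation tests and the CA score used a prior count of 2. Alternatives were DESeq2 1.42.0, RLE size factors, no low-count filter, a fit of only the samples compared, both covariates, leaving out each library, and leaving out 3 KO libraries with over 10% of reads outside genes, which was chosen after seeing the data. Across 20 same-group pairs the mean chi-square per gene was 13.5 to 99.7, so no library was a duplicate. No sequencing batch is given in the labels.

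Genes named are Ndufs4; among called genes without overlap, a symbol and a mean of at least 1 CPM, the 12 of largest change each way; the 8 of smallest p each way at 20 CPM or more; up to 4 called genes per list (or 2 by level where none was called); 8 immediate early genes by the ratio in L246; and 3 genes each way for differences. Some are left out for length, and 1 result is not reported here. Cirbp, Chordc1, Ahsa1, Hspe1, Hsp90aa1, Hsp90b1, Sdf2l1, Creld2, Akt2, Vegfb, Ndst1, Arc, Egr1, Wfs1 and Gfap were named after their values were seen. The members, lists and this rule were chosen with earlier results of these data known. Promoters come from a RefSeq table (GRCm38.p6).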

Additional observations from a re-analysis of the deposited data

Results flagged for a closer look

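In each group of 5 libraries, the CPM values of the 81 genes named and the library values were checked for 1 library far from the other 4 by Dixon's test, 172 sets of values in all. The test marked 25, of which 10 were KO L246. Chance marks about 1 in 20 sets, but 8 immediate early genes were named by their ratio in L246 and other genes after their values were seen, so the number of marks is no comparison with chance. In L246 these were Npas4 (419 CPM), Fos (644 CPM), Fosb (330 CPM), Btg2 (333 CPM), Ccn1 (176 CPM), Arc (594 CPM), Egr1 (716 CPM), Atf3 (28.9 CPM), Edn1 (9.04 CPM) and Gm15564 (19.8 CPM), each the highest of its group. WT L252 was the highest of its group for Arc (246.5 CPM), Fosb (21.8 CPM), Hist1h2be (9.01 CPM), Hsp90b1 (352 CPM), Pdia6 (112 CPM) and P4ha1 (70.2 CPM). KO L283 stood toward the WT values for Rbm3 (102 CPM), Akt2 (83.1 CPM) and Vps11 (76.7 CPM). KO L281 stood apart for Dcst2 (3.39 CPM) and Pdia6 (62.4 CPM), and KO L279 for Lztr1 (98.7 CPM). In WT, L277 was lowest for Akt2 (91.3 CPM), L278 for Ccl17 (0.27 CPM) and L296 for Edn1 (0.93 CPM).

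The KO effect under vehicle differed between F and M at 26 genes in the test of the difference itself. The F minus M difference was -1.43 for Smoc2 (adjusted p = 0.0163), which had -0.40 in F (adjusted p = 0.137) and 1.03 in M (adjusted p = 0.0122). It was -1.32 for Adra1d and -1.06 for Sema3e.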

How the results depend on the processing

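No paired analysis was possible because the groups compared share no number in the titles. The KO against WT count under vehicle in F (1270) was 828 without the low-count filter, 456 in a fit of only the samples compared, 156 when the percentage of reads outside genes was adjusted for and 77 with only the 2 KO libraries under 10%, and ranged from 573 to 2014 when 1 library was left out. In the order DESeq2, only the samples compared and that adjustment, the count in vehicle M (132) was 533, 483 and 66 (0 to 152 without 1 library), and under CP2 in F (511) it was 890, 40 and 273 (140 to 935). The F minus M count (26) was 136 with DESeq2, 15 without the filter and 4 with only the samples compared (0 to 63), and the vehicle minus CP2 count (0) was 5 with DESeq2. The Ndufs4 difference ranged from -0.69 to -0.58 without 1 library. The difference in reads outside genes ranged from 2.63 to 4.01 points, and its exact permutation p rose above 0.05 in 6 of these 10 cases. Of the 81 genes named, 7 reversed with only KO L282 and L283: Arc (-0.35), Btg2 (-0.10), Ccn1 (-0.10), Egr1 (-0.22), Fos (-0.32), Fosb (-0.82) and Npas4 (-0.38). Without L246, 5 reversed, and over the 10 fits that left out 1 library Arc ranged from -0.57 to 1.19, Egr1 from -0.55 to 0.60, Fos from -0.38 to 3.11, Fosb from -0.62 to 2.96 and Npas4 from -0.45 to 3.34. In the adjusted fit 47 of the 81 kept their direction without a call, while RLE size factors changed no call or direction, and DESeq2 changed 1 call (Wfs1). The cause of these shifts was not tested. Genes under 1 CPM are limited by depth.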
